A study of Mus musculus with 12 samples.

Results

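The lysosomal hydrolase and V-ATPase genes were a set of 46 genes taken by symbol out of 47643 gene identifiers listed for each macrophage (Mϕ) subpopulation, and each symbol matched 1 Ensembl identifier. They comprised 18 acid hydrolases, 8 proteins of the lysosomal membrane, 3 luminal proteins, the transcription factor gene Tfeb and 16 genes of the vacuolar proton pump, of which 6 encode the V0 sector, 8 the V1 sector and 2 the accessory subunits. They were listed by their known roles, with earlier results of these data known. The mean count was at least 3 for 45 of the 46 genes, which were tested in every comparison, while Atp6v0c stayed below this level.

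Lysosomes break down material that Mϕ take up, including microbial particles and dying cells, and their hydrolases work best at acidic pH. The V-ATPase supplies this acidity, since its cytosolic V1 sector hydrolyses ATP and thereby drives protons through the V0 sector in the membrane. TFEB and related factors bind an element with the core CACGTG in the promoters of many lysosomal genes.

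Peritoneal Mϕ were sorted from female C57BL/6 mice of 8 to 12 weeks at day 6 after i.p. injection of 5 mg/kg zymosan, a yeast cell wall preparation, which all mice received. From day 1 on, the animals were given either 25 mg/kg of CIII, an inhibitor of the prostaglandin E2-forming enzyme mPGES-1, or vehicle (VEH) by daily i.p. injection. F4/80lo Mϕ were gated as CD45+, CD11b+, low in F4/80 and MerTK and high in MHCII, whereas F4/80hi Mϕ were CD45+, CD11b+ and high in F4/80 and MerTK. The gating that the study describes for its lavage cells sets dendritic cells (CD11c+, MHCII+) aside first and removes Ly6G+ neutrophils from the F4/80lo cells. The 3 libraries of each of the 4 groups carry the replicate numbers 1 to 3, and the study's statistics speak of independent experiments in general, but whether these libraries came from separate or pooled mice is not given. The p-values measure the spread between these libraries, which may be partly technical. In such bulk samples, fewer cells of a type and less RNA per cell cannot be told apart.

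Depth ranged from 426624 to 3389448 reads on genes per library. The libraries numbered 3 stood apart in each group, since 2.65 to 14.3% of their reads fell on the single gene Gm42418, against at most 0.579% in the others. Libraries with the same number deviated together from their group means, most strongly those numbered 3, and values with the replicate number as a block are therefore given where they changed a call. Adgre1, which encodes F4/80, was separated by the sort (187 to 337 jointly normalised counts in F4/80lo against 360.02 to 1263 in F4/80hi Mϕ), whereas Mertk overlapped (169.95 to 427 and 183 to 402). The defining genes of both subpopulations, Csf1r and Itgam included, were read in all libraries. Of markers of other cells, Ly6g, Ncr1, Mcpt4, Epx, Prg2, Msln, Upk3b and Krt19 were at 0 in F4/80hi Mϕ, and all of these other than Ly6g and Ncr1 were at 0 in F4/80lo Mϕ as well.

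To show the letters that TFEB-type factors read, the promoters of the members were taken from RefSeq (GRCm38.p6, 250 bases before to 50 bases after each gene start), where 38 of the 46 genes had an entry. Asah1, Atp6v0d2, Atp6v1b2, Atp6v1c1, Atp6v1g1, Atp6v1h, Galns and Npc1 had none. The core CACGTG, which reads the same on both strands, was present in 11 of the 38 genes (28.9%), compared with 8.09% of the 27025 genes in the promoter table. Its extension TCACGTGA, also a palindrome and always overlapping the core, was present in 5 of 38 (13.2%), against 1.12% of all genes. The median GC content was 56.3% in the members' promoters and 52.7% in all. The genes with the core were the hydrolase genes Gaa, Gla, Glb1, Lgmn and Naglu, the membrane protein genes Lamp1 and Mcoln1, and the pump genes Atp6v0b, Atp6v0d1, Atp6v0e and Atp6v1a, of which Gla, Mcoln1, Atp6v0d1, Atp6v0e and Atp6v1a held the extended form. These letters describe the sequence and show no binding.

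The 250 bases before the gene starts of Gla, which encodes alpha-galactosidase A, and Atp6v1a, which encodes the ATP-hydrolysing subunit of V1, are shown because both held the extended element and were called higher in F4/80hi Mϕ when the replicate number was a block. The other genes with this element, Mcoln1, Atp6v0d1 and Atp6v0e, were not called. Cd63, Grn, Cd68, Tpp1, Npc2 and Scarb2 were called and held no core. Lamp1, which encodes a major glycoprotein of the lysosomal membrane, is shown for its 4 copies of the core within 81 bases, and Lgmn (asparaginyl endopeptidase) and Mcoln1 (a lysosomal calcium channel) with 20 bases on either side of a single core, which in Mcoln1 is the copy nearer to the gene start of 2. Capitals mark TCACGTGA in Gla and Atp6v1a and CACGTG in the other genes.
Gla, chrX:134601006-134601255, minus strand: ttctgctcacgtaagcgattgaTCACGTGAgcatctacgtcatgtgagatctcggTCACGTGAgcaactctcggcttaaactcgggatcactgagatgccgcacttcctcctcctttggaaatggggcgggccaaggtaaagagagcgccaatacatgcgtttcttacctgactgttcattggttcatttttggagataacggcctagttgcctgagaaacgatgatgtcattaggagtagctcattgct
Atp6v1a, chr16:44139260-44139509, minus strand: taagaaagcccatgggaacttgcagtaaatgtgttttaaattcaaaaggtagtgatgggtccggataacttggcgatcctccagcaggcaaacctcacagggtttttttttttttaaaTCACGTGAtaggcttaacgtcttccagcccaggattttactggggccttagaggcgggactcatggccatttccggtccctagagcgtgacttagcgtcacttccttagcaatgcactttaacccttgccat
Lamp1, chr8:13159080-13159160, plus strand: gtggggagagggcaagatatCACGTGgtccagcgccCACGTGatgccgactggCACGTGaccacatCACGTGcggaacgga
Lgmn, chr12:102439116-102439161, minus strand: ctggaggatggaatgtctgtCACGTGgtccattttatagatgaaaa
Mcoln1, chr8:3500454-3500499, plus strand: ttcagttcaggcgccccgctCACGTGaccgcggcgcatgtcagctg
In Gla the core began 194 and 227 bases before the gene start, in Atp6v1a 131, in Lgmn 49 and in Mcoln1 45 bases before it.

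Most of the genes were read at higher levels in F4/80hi than in F4/80lo Mϕ. To set the subpopulations side by side, the reads of all 12 libraries were divided by jointly estimated size factors, and these jointly normalised counts were compared over 6 against 6 libraries. The log2 difference was above 0 for 41 of the 45 tested genes, with a median of 0.41 compared with 0.01 over all 10660 tested genes, of which 50.5% were above 0. The exceptions were Hexa, Psap, Tfeb and Atp6v0b. All 6 comparisons of same-numbered libraries were positive for 20 of the 45 genes and negative for none, whereas 5.34% of all genes were positive in all 6. Both treatments showed this, as 40 of the 45 differences were above 0 in VEH and 39 in CIII libraries.

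No member passed an adjusted p of 0.05 in the limma fit without the block, in which 0.00938% of all genes were called higher in F4/80hi Mϕ, while 14 of the 45 had an unadjusted p under 0.05 with the higher level in F4/80hi and 0 with the lower (4.37% of all genes in the former direction). With the replicate number as a block, 10 members were called higher and 0 lower, against 1.19% of all genes called higher and 1.29% called lower. These were Cd63, Lgmn, Gla, Atp6v1a, Grn, Cd68, Tpp1, Npc2, Scarb2 and Lamp1, which were picked out after their values were seen. Without the libraries numbered 3, the blocked fit called 13 members higher (3.76% of all genes), which included these 10 genes and added Glb1, Naglu and Atp6v1e1. The count moved with the library left out. Under the block, it was 12 without the number 3 library of F4/80lo CIII or of F4/80hi VEH and 1 to 5 without any other single library, and Cd63 alone was called in all 12 of these fits. Within VEH or CIII libraries alone, no member was called in the fit without the block.

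**Figure D1:**
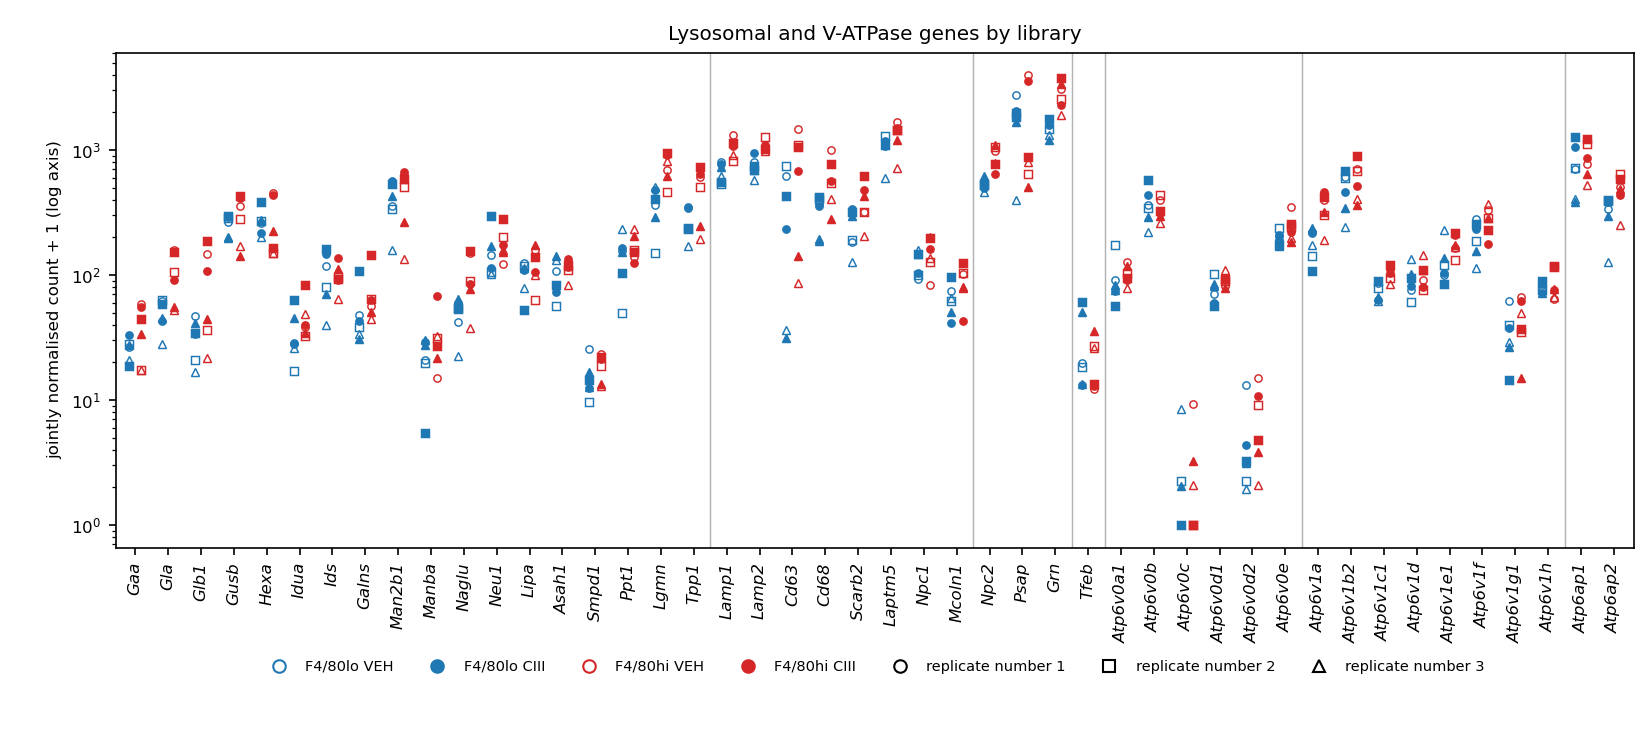
Jointly normalised count plus 1 (log axis) of each of the 46 genes in the 12 libraries, with F4/80lo Mϕ in blue and F4/80hi Mϕ in red, open symbols for VEH, filled symbols for CIII and the symbol shape giving the replicate number. Vertical lines part hydrolases, membrane proteins, luminal proteins, Tfeb, V0, V1 and accessory subunits, and the low triangles of Cd63 are the libraries numbered 3.

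Among the hydrolase genes, 17 of 18 had a positive difference (median log2 difference 0.38, and 0.242 to 0.481 when 1 library was left out with or without the block) and 3 were called with the block. Lgmn, the gene of the asparaginyl endopeptidase legumain, had 365, 148 and 505 (VEH) and 479.6, 402 and 288 (CIII) jointly normalised counts in F4/80lo Mϕ, against 688, 457 and 820.3 (VEH) and 919, 941 and 614 (CIII) in F4/80hi Mϕ. Only the F4/80hi VEH library numbered 2 lay within the range of F4/80lo Mϕ. Its log2 difference was 1.08 ± 0.31 (SE), 2.12-fold, with limma adjusted p = 0.271 without and 0.0312 with the block (0.00136 to 0.626 over all alternatives). Gla spanned 27.3 to 62.0 (median 51.0) in F4/80lo against 51.9 to 156 (median 97.4) in F4/80hi Mϕ. It differed by 0.96 ± 0.34 on the log2 scale, with limma adjusted p = 0.392 without and 0.0383 with the block (0.00968 to 0.748 over all alternatives). Tpp1, which encodes a tripeptidyl peptidase, spanned 168 to 347 (median 235) in F4/80lo against 193 to 734 (median 557) in F4/80hi Mϕ. The library numbered 3 was the lowest of each group, and its log2 difference was 0.79 ± 0.35 with limma adjusted p = 0.505 without and 0.0464 with the block (0.000944 to 0.815).

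Glb1 and Naglu, encoding beta-galactosidase and alpha-N-acetylglucosaminidase, had log2 differences of 1.18 ± 0.47 and 0.94 ± 0.35 and were higher in F4/80hi Mϕ in 6 of 6 same-numbered comparisons, yet missed the threshold with the block (limma adjusted p = 0.0872 and 0.0734, 0.00535 to 0.798 and 0.0127 to 0.75 over all alternatives). Lipa, the gene of lysosomal acid lipase, overlapped widely with 51.1 to 123.5 counts in F4/80lo against 61.5 to 171 in F4/80hi Mϕ, and its log2 difference of 0.29 ± 0.29 did not pass (limma adjusted p = 0.799). Hexa, the gene of the beta-hexosaminidase alpha subunit, was the only hydrolase gene with a negative value (log2 difference -0.17 ± 0.33). It was read at 449 and 439.5 counts in the F4/80hi libraries numbered 1 and at 148 to 223 in the other 4, so that the spread within F4/80hi Mϕ exceeded the difference. In the fit without the block, leaving out 1 library moved the difference from 0.785 to 1.48 for Glb1, from 0.109 to 0.46 for Lipa and from -0.435 to -0.0128 for Hexa.

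All 8 genes of membrane proteins had positive differences (median 0.61) and 4 of them were called with the block. Cd63, the gene of a tetraspanin of late endosomes and lysosomes, varied most with the replicate number. It was read at 619, 739 and 35.1 (VEH) and 231, 425 and 30.6 (CIII) counts in the F4/80lo libraries 1, 2 and 3, and at 1480.5, 1088 and 85.5 (VEH) and 684, 1052 and 142 (CIII) counts in the F4/80hi libraries. The number 3 libraries were the lowest of each group, and within each number the F4/80hi library was the higher. The log2 difference was 1.35 ± 0.92 without and ± 0.23 (SE) with the block, and the limma adjusted p was 0.694 and 0.00672, respectively (0.00138 to 0.905 over all alternatives). Leaving out single libraries moved this difference between 0.65 and 2.0 in the fit without the block.

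Cd68, which encodes macrosialin and is widely used as a Mϕ marker, spanned 186 to 418 counts (median 364) in F4/80lo against 279.7 to 1007 (median 553) in F4/80hi Mϕ. Its log2 difference was 0.84 ± 0.34 (limma adjusted p = 0.455 without and 0.0246 with the block, 0.0134 to 0.798 over all alternatives). Lamp1 did not overlap between the subpopulations. It was read at 799, 537 and 618 (VEH) and 768, 549 and 731 (CIII) counts in F4/80lo against 1328, 812 and 909 (VEH) and 1083, 1132 and 1141 (CIII) counts in F4/80hi Mϕ. The log2 difference of Lamp1 was 0.68 ± 0.23 with limma adjusted p = 0.349 without and 0.0446 with the block (0.027 to 0.685 over all alternatives). Lamp2, a related glycoprotein gene, did not overlap either (576 to 944 and 973 to 1258 counts), and its difference of 0.55 ± 0.21 on the log2 scale missed the threshold with the block (limma adjusted p = 0.0961, 0.0825 to 0.76 over all alternatives). Scarb2, which encodes the sorting receptor of glucocerebrosidase, had a log2 difference of 0.70 ± 0.21 (limma adjusted p = 0.322 without and 0.0277 with the block, 0.0147 to 0.656 over all alternatives). Laptm5, Npc1 and Mcoln1 had smaller values between 0.25 and 0.43.

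Of the luminal protein genes, Npc2 and Grn were higher in every F4/80hi library than in every F4/80lo library, and with Lamp1 and Lamp2 they were the 4 members without overlap (0.281% of all genes were separated in this direction). Npc2, whose product hands cholesterol to NPC1, was read at 463 to 624 counts in F4/80lo against 639 to 1103 in F4/80hi Mϕ, a log2 difference of 0.74 ± 0.22 (limma adjusted p = 0.288 without and 0.0367 with the block, 0.00941 to 0.606 over all alternatives). Grn, the gene of progranulin, was read at 1771, 1481 and 1318 (VEH) and 1588, 1778 and 1193 (CIII) counts in F4/80lo against 3091, 2554 and 1916 (VEH) and 2294, 3760.4 and 3353 (CIII) counts in F4/80hi Mϕ. Its log2 difference was 0.87 ± 0.27 (limma adjusted p = 0.313 without and 0.0363 with the block, 0.00828 to 0.656 over all alternatives). Psap, the gene of the saposin precursor, went the other way with a log2 difference of -0.34 ± 0.59 that did not pass (limma adjusted p = 0.91) and lay between -0.769 and -0.044 when 1 library was left out of the fit without the block. In F4/80hi Mϕ it was read at 3980 and 3575 counts in the libraries numbered 1 and at 508 to 872 in the other 4, whereas 5 of the 6 F4/80lo libraries held 1671 to 2765 counts and the VEH library numbered 3 held 398.

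Tfeb itself was read at low levels, with 12.2 to 60.02 counts in F4/80lo against 11.2 to 34.8 in F4/80hi Mϕ. The ranges overlapped, and the log2 difference of -0.32 ± 0.44 did not pass (limma adjusted p = 0.87). It ran from -0.664 to -0.0446 when 1 library was left out, with or without the block.

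Of the proton pump genes, 14 of 15 tested had positive differences (median 0.30), and Atp6v1a was the only one called with the block. Atp6v1a was read at 216, 140.2 and 173 (VEH) and 218, 107 and 238 (CIII) counts in F4/80lo against 400.5, 301 and 188 (VEH) and 458, 422 and 317 (CIII) counts in F4/80hi Mϕ. Only the F4/80hi VEH library numbered 3 lay within the range of F4/80lo Mϕ. The log2 difference of Atp6v1a was 0.93 ± 0.27 (limma adjusted p = 0.282 without and 0.0277 with the block, 0.000441 to 0.628 over all alternatives). The other V1 genes differed by 0.10 (Atp6v1h) to 0.52 (Atp6v1e1) on the log2 scale, and Atp6ap2, the gene of the prorenin receptor and an accessory subunit, by 0.63 ± 0.31. When 1 library was left out of the fit without the block, the difference ran from 0.375 to 0.826 for Atp6ap2. For Atp6v1h it ran from -0.047 to 0.176, so that its sign turned.

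The V0 genes did not pass in either fit. Atp6v0d1 and Atp6v0d2 encode alternative d subunits, of which the second is known from osteoclasts and some Mϕ. Atp6v0d1 was read at 55.6 to 100.5 counts in F4/80lo against 78.1 to 108 in F4/80hi Mϕ (log2 difference 0.28 ± 0.21, limma adjusted p = 0.73). Atp6v0d2 was read at only 0.941 to 12.2 and 1.08 to 14.0 counts (log2 difference 0.74 ± 0.66, limma adjusted p = 0.768, and 0.448 to 1.19 when 1 library was left out), and the highest value in each subpopulation was that of the VEH library numbered 1. Atp6v0c, the proteolipid of the proton channel, had 37 reads in all 12 libraries, of which 24 were in the F4/80lo VEH library numbered 3, and 6 libraries had 0 reads. The genes annotated as its copies, Atp6v0c-ps1 and Atp6v0c-ps2, had 2 reads and 1 read, and how reads matching several places were counted is not stated, so that its level is uncertain.

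**Figure D2:**
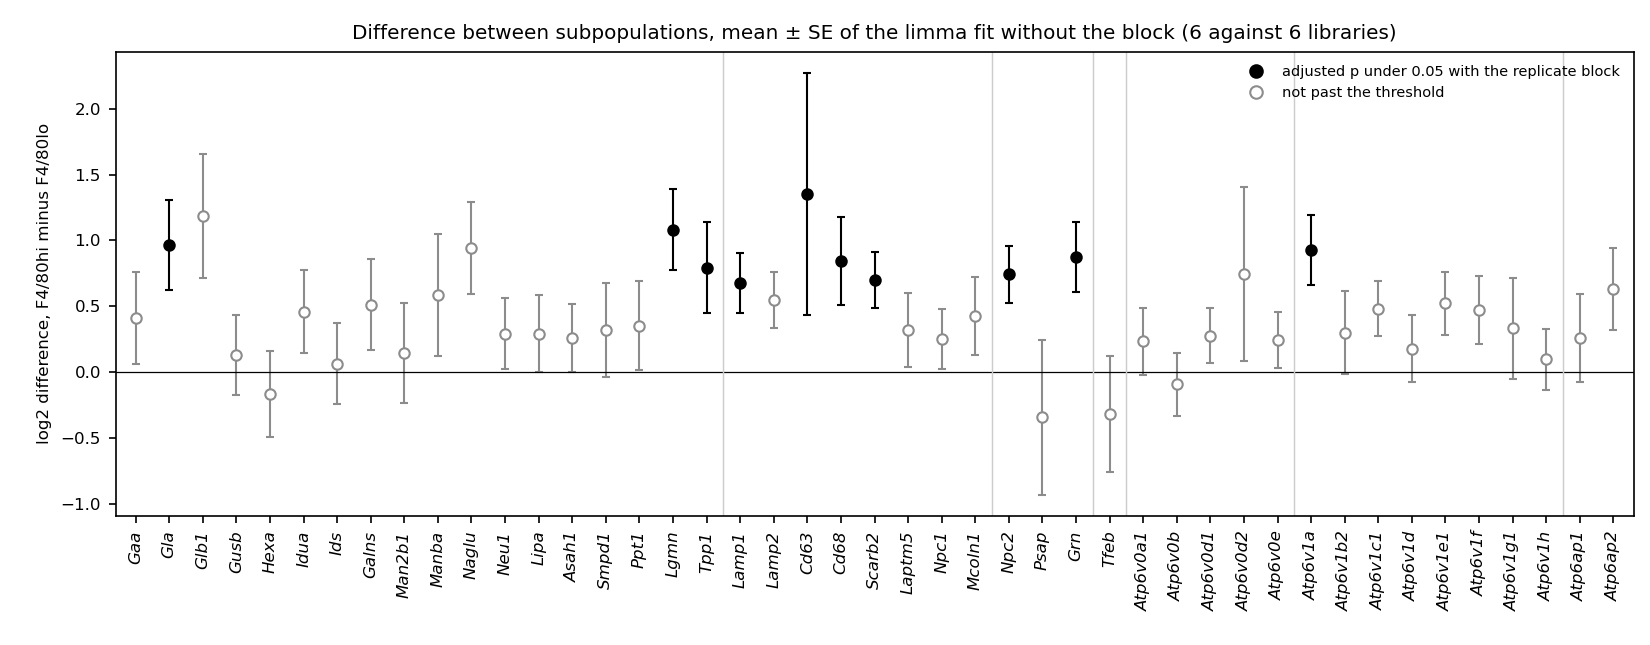
Log2 difference of jointly normalised counts plus 1 between F4/80hi and F4/80lo Mϕ for the 45 tested genes, with bars giving the standard error of the limma fit without the block (6 against 6 libraries) and filled points marking the 10 genes called with the block. Of the points, 41 lie above 0.

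Marker genes moved between the subpopulations as well, and their part in these differences was not tested. The summed jointly normalised counts of 5 genes of resident Mϕ (Gata6, Timd4, Icam2, Adgre1 and Mertk, all read) were 568 to 791 in F4/80lo against 726 to 2203 in F4/80hi Mϕ. Of these genes, Adgre1 and Mertk encode proteins that entered the sort. Those of 6 genes of infiltrating Mϕ (all read, including MHC class II genes that entered the sort) ranged from 3453 to 19825 and from 567 to 11703. Neutrophil markers summed to 32.7 to 81.5 and 38.8 to 145 (8 of 8 and 7 of 8 genes read, Ly6g at 0 in F4/80hi), B cell markers to 21.6 to 167 and 0 to 60.1 (7 of 7 read), T and NK cell markers to 7.79 to 35.6 and 1.37 to 37.9 (7 and 6 of 7 read), and dendritic cell markers to 5.33 to 228 and 1.25 to 20.5 (6 of 6 read). Mast cell and eosinophil markers reached at most 14.9 (3 of 6 read) and mesothelial markers at most 51.1 (2 of 5 read). The gating described by the study set aside CD11c+, MHCII+ cells and, among F4/80lo cells, those with Ly6G. Among the members, Grn was read at 1193 to 3760.4 and Gaa at 16.2 to 57.2 counts, so that members lay both above and below several of these sums.

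The 46 genes together took 1.60, 1.504 and 0.818% (VEH) and 1.62, 1.56 and 1.28% (CIII) of the reads on genes in F4/80lo Mϕ, compared with 2.30, 1.82 and 1.08% (VEH) and 2.13, 2.27 and 1.57% (CIII) in F4/80hi Mϕ. In each of the 6 same-numbered comparisons the F4/80hi library had the larger share, and the library numbered 3 had the smallest share of its group in all 4 groups. Among the 11 genes with the CACGTG core, 10 had a positive difference between the subpopulations (median 0.68), as had 23 of the 26 tested genes without it in the promoter table (median 0.34), and their ranges overlapped (-0.09 to 1.18 and -0.34 to 1.35).

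Inhibition of mPGES-1 was then compared with VEH within each subpopulation, on the normalised counts as deposited. In F4/80lo Mϕ no member was called (0% of all genes at a limma adjusted p under 0.05, smallest adjusted p of a member 0.9996). The log2 fold change was above 0 for 30 of 45 members with a median of 0.11, compared with -0.05 over all 10718 genes tested, and for 22 members without the libraries numbered 3. When 1 library was left out, 22 to 35 members were above 0, and the VEH library numbered 3 again gave the lowest count. At an unadjusted p under 0.05 there were 2 members higher with CIII, Scarb2 and Man2b1, and 0 lower (1.08% of all genes were higher at this level). With the block these counts were 3 (3.03% of all genes) and 1 (3.85%), through Ids and Cd63, which had fold changes of 0.70 ± 0.48 and -0.81 ± 1.11 (SE without the block) on the log2 scale. Leaving out 1 library moved these from 0.277 to 1.07 for Ids and from -2.21 to 0.286 for Cd63, whose sign thus turned. The treatments did not overlap for 3 members, Scarb2, Man2b1 and Naglu, which were higher with CIII (3.82% of all genes), and for 0 that were lower (4.92%).

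Scarb2 had 189.7, 196 and 135 normalised counts with VEH and 351, 329 and 311 with CIII in F4/80lo Mϕ. All 3 CIII values lay above all VEH values. Its log2 fold change was 0.94 ± 0.32 (limma adjusted p = 0.9996, and 0.252 to 1 over all alternatives). Man2b1, the gene of lysosomal alpha-mannosidase, had 370.02, 350.4 and 169 counts with VEH and 592, 546 and 447 with CIII, a log2 fold change of 0.91 ± 0.38. Naglu had 43.1, 53.9 and 22.6 counts with VEH and 61.0, 54.8 and 66.3 with CIII (0.68 ± 0.43). Idua, which encodes alpha-L-iduronidase, had 29.1, 16.7 and 26.6 counts with VEH and 28.4, 64.0 and 46.4 with CIII, so that the libraries numbered 1 lay within 1 count of each other (0.87 ± 0.47). Tfeb had 19.8, 17.97 and 13.3 counts with VEH and 12.8, 61.7 and 52.0 with CIII. Its library numbered 1 lay below the VEH values while the others lay above them, and its log2 fold change of 1.01 ± 0.61 did not pass. Leaving out 1 library moved the fold change from 0.601 to 1.69 for Tfeb, from 0.542 to 1.11 for Man2b1 and from 0.323 to 0.931 for Naglu.

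Of the pump genes in F4/80lo Mϕ, the smallest p values belonged to Atp6v1g1, Atp6v0a1 and Atp6v0b, and none passed. Atp6v1g1, a subunit of the peripheral stalk, had 64.0, 39.8 and 29.98 counts with VEH and 38.3, 13.7 and 26.5 with CIII (log2 fold change -0.79 ± 0.51). Atp6v0a1, an a subunit of the membrane sector, had 94.3, 177 and 78.9 counts with VEH and 75.9, 57.1 and 86.2 with CIII (-0.60 ± 0.40). Atp6v0b, a proteolipid subunit, had 377, 356 and 235 counts with VEH and 455, 592 and 304 with CIII (0.46 ± 0.37). The treatments overlapped in all of these, and leaving out 1 library gave -1.11 to -0.402 for Atp6v1g1, -0.834 to -0.256 for Atp6v0a1 and 0.235 to 0.714 for Atp6v0b. Lamp1, Cd68 and Grn had fold changes of 0.06 ± 0.35, -0.03 ± 0.42 and -0.02 ± 0.38 on the log2 scale. Lipa differed by -0.30 ± 0.41, Atp6v0d1 by -0.40 ± 0.36 and Atp6v0d2 by -0.13 ± 1.06, the last of which lay between -0.628 and -0.0422 when 1 library was left out.

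In F4/80hi Mϕ no member was called either (0% of all genes, smallest adjusted p of a member 0.992). The fold change was above 0 for 28 of 45 members with a median of 0.21 on the log2 scale, compared with 0.05 over 10499 genes, and for 27 members without the libraries numbered 3. It was above 0 for 22 to 33 members when 1 library was left out, the lowest count being that without the VEH library numbered 3. Scarb2 was the 1 member with an unadjusted p under 0.05, being higher with CIII (1.29% of all genes). With the block there were 3 such members higher (5.07% of all genes), Scarb2, Npc1 and Glb1, and 0 lower (6.24%). The treatments did not overlap for 5 members, which were all higher with CIII (4.73% of all genes; 5.76% were separated in the other direction), namely Scarb2, Npc1, Asah1, Atp6v1c1 and Atp6v1e1.

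Scarb2 had 300.5, 304 and 198 normalised counts with VEH and 459, 590.1 and 413 with CIII in F4/80hi Mϕ. The treatments were again separated, with a log2 fold change of 0.87 ± 0.34 (limma adjusted p = 0.992, and 0.211 to 1 over all alternatives). Npc1, the gene of a cholesterol transporter of the lysosomal membrane, had 78.4, 121 and 132 counts with VEH and 154, 189.9 and 195 with CIII (0.72 ± 0.34). Gaa, the gene of acid alpha-glucosidase, had 54.5, 15.7 and 15.7 counts with VEH and 52.7, 42.1 and 31.7 with CIII (0.76 ± 0.54), and Glb1 had 139.6, 34.0 and 19.9 with VEH and 103, 179 and 42.7 with CIII (1.00 ± 0.74). In both genes the VEH library numbered 1 was the highest VEH value and lay above its CIII counterpart, and leaving out 1 library moved the fold change from 0.473 to 1.34 for Gaa and from 0.416 to 1.79 for Glb1. Ids, which encodes iduronate-2-sulfatase, had 86.4, 91.4 and 61.8 counts with VEH and 131, 87.7 and 108 with CIII (0.45 ± 0.34).

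The pump genes with the smallest p values in F4/80hi Mϕ were Atp6v1f, Atp6v1a and Atp6v1e1, of which none passed. Atp6v1f, a subunit of the central stalk, had 312, 272 and 354 counts with VEH and 168, 218 and 275 with CIII and was lower with CIII in 3 of 3 same-numbered comparisons (-0.52 ± 0.33). Atp6v1a had 382, 287 and 182 counts with VEH and 440.4, 405 and 309 with CIII (0.49 ± 0.37). Atp6v1e1, another stalk subunit, had 157, 125 and 162 counts with VEH and 201, 208 and 169 with CIII (0.38 ± 0.31). When 1 library was left out, these fold changes ran from -0.698 to -0.345 for Atp6v1f, from 0.2 to 0.731 for Atp6v1a and from 0.263 to 0.469 for Atp6v1e1. The fold changes of Lamp1, Lipa and Grn were 0.18 ± 0.36, 0.45 ± 0.41 and 0.32 ± 0.44, and those of Cd68, Tfeb, Atp6v0d1 and Atp6v0d2 were -0.28 ± 0.48, -0.13 ± 0.58, -0.09 ± 0.32 and -0.18 ± 0.90 on the log2 scale. Leaving out 1 library gave 0.032 to 0.385 for Lamp1, 0.114 to 0.783 for Lipa, 0.144 to 0.534 for Grn and, in the same fits, 0.274 to 0.592 for Ids.

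**Figure D3:**
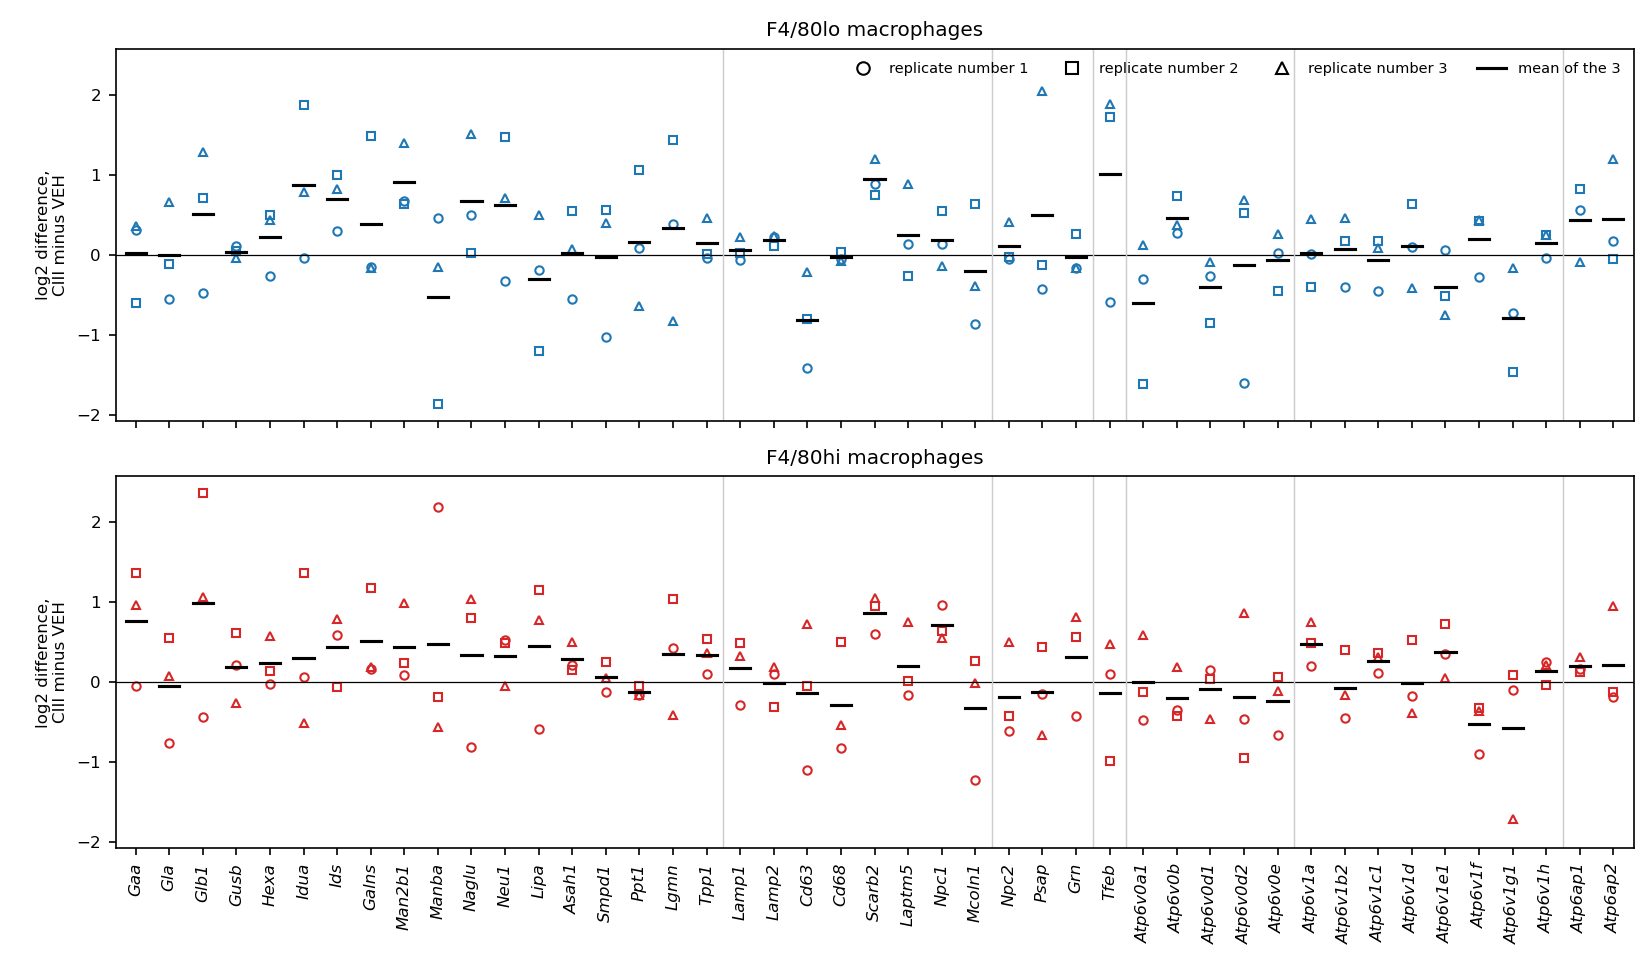
Log2 difference of normalised counts plus 1 between CIII and VEH libraries of the same replicate number for the 45 tested genes in F4/80lo (upper) and F4/80hi Mϕ (lower), with symbols for the 3 numbers and a line for their mean. For Scarb2 all 3 numbers lie above 0 in both panels, whereas for most other genes they fall on either side of 0.

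The response to CIII was not shown to differ between the subpopulations for any member. The difference of the responses, taken as F4/80lo minus F4/80hi in one limma fit over the 12 libraries, was called for 0 members (0% of all 10660 genes), and 0 members had an unadjusted p under 0.05 (1.8% of all genes). For Scarb2 it was 0.09 ± 0.43 on the log2 scale, and for Tfeb 1.16 ± 0.88, which ran from -0.0929 to 0.298 and from 0.746 to 1.85 when 1 library was left out. The 6 marker genes of infiltrating Mϕ summed to 3453 to 10495 jointly normalised counts in VEH and 12226 to 19825 in CIII samples of F4/80lo Mϕ. In F4/80hi Mϕ the sums overlapped, with 567 to 2979 (VEH) and 1218 to 11703 (CIII). The MHC class II genes H2-Aa, H2-Ab1 and H2-Eb1 reached 7432, 7414 and 4222 counts in F4/80lo Mϕ, and Ccr2 2082. With CIII, 5 of 6 tested marker genes were above 0 in F4/80lo and 5 of 5 in F4/80hi Mϕ. With or without the block, 0 of these genes were called. Their part in the values of the lysosomal genes was not tested.

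To compare hydrolases with the proton pump, both groups were described by their medians and by their summed reads. In F4/80lo Mϕ, 14 of 18 hydrolase genes and 8 of 15 pump genes were above 0 with CIII, with medians of 0.19 and 0.02 on the log2 scale beside -0.05 for all genes. By number 1, 2 and 3, the hydrolase medians were -0.036, 0.55 and 0.45 and the pump medians -0.044, 0.17 and 0.24. In F4/80hi Mϕ, 16 of 18 hydrolase and 7 of 15 pump genes were above 0, with medians of 0.34 and -0.01 beside 0.05 for all genes. The medians by number were 0.08, 0.55 and 0.28 for the hydrolases and -0.17, 0.07 and 0.19 for the pump. Hence the hydrolase median lay above the pump median in 6 of 6 same-numbered comparisons, though by less than 0.01 in number 1 of F4/80lo Mϕ. The F4/80lo and F4/80hi libraries of a number deviated together, so these 6 comparisons are not independent of each other. In all 3 numbers, 3 of 18 (F4/80lo) and 4 of 18 (F4/80hi) hydrolases were higher with CIII, beside 13.1% and 17.2% of all genes. When 1 library was left out, the hydrolase median ran from 0.159 to 0.396 in F4/80lo Mϕ and from 0.161 to 0.54 in F4/80hi Mϕ, and the pump median from -0.137 to 0.0912 and from -0.169 to 0.118.

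The summed hydrolase reads relative to the summed pump reads were 0.77, 0.589 and 0.936 with VEH against 0.797, 0.735 and 0.948 with CIII in F4/80lo Mϕ, and 0.958, 0.666 and 0.817 against 1.16, 0.943 and 0.791 in F4/80hi Mϕ. The treatments overlapped in both subpopulations, and the mean log2 ratio differed by 0.13 (F4/80lo) and 0.24 (F4/80hi), less than the SD within VEH libraries (0.34 and 0.26). Within numbers 1, 2 and 3 the differences were 0.05, 0.32 and 0.02 (F4/80lo) and 0.27, 0.50 and -0.05 (F4/80hi), so that 5 of 6 were positive. Here and below, the 6 comparisons are not independent, since the subpopulations share the replicate numbers. Leaving out 1 library moved the mean difference from -0.0476 to 0.287 (F4/80lo) and from 0.102 to 0.377 (F4/80hi). Lgmn, Man2b1 and Tpp1 made up 20.3, 13.8 and 12.2% of the hydrolase sum, and Atp6ap1, Atp6v1b2 and Atp6ap2 made up 22.5, 14.5 and 11.2% of the pump sum. When each gene counted equally, as the mean log2 value over the hydrolases minus that over the pump genes, CIII exceeded VEH in 6 of 6 same-numbered comparisons, by 0.14, 0.60 and 0.38 (F4/80lo) and by 0.45, 0.61 and 0.20 (F4/80hi). In this form the treatments did not overlap in F4/80lo Mϕ (-0.54 to -0.15 with VEH and -0.02 to 0.06 with CIII). In F4/80hi Mϕ the lowest CIII value, that of number 3 at -0.135, lay just above the highest VEH value of -0.138, that of number 1. Atp6v0c, whose level is uncertain, weighed as much here as any other pump gene. It was read at 8.37 jointly normalised counts in this VEH library and at 2.25 in this CIII library, so the narrow separation in F4/80hi Mϕ rests on it. Between the subpopulations, the ratio of summed reads was larger in F4/80hi Mϕ for the numbers 1 and 2 and smaller for number 3, under both treatments.

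**Figure D4:**
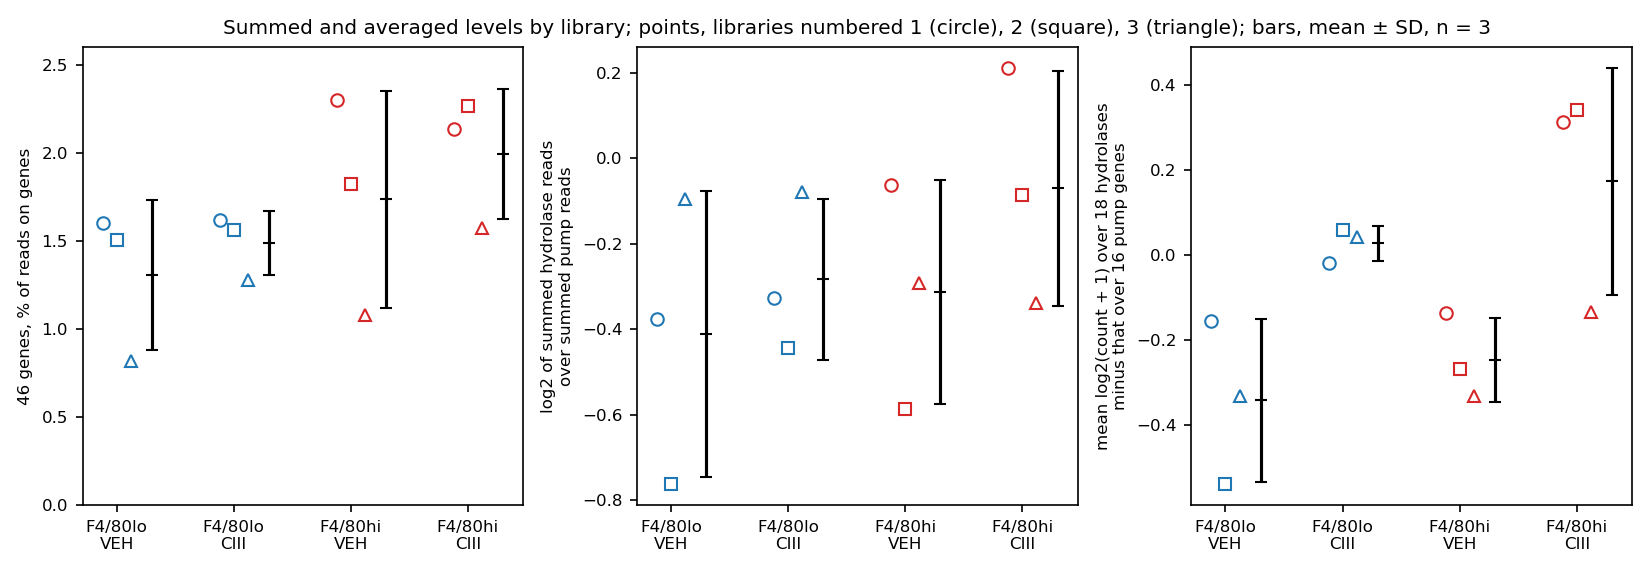
Share of reads on the 46 genes (left), log2 ratio of summed hydrolase to summed pump reads (middle) and mean log2 level of the hydrolases minus that of the pump genes (right) in each library, with bars giving mean ± SD over the 3 libraries of a group. The share of number 3 (triangles) is the lowest in every group, and the value on the right is above its VEH counterpart in all 6 CIII libraries.

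Further genes of the pathway were read by the same tests. Of 28 other lysosomal genes, all tested, 21 had a positive difference between F4/80hi and F4/80lo Mϕ (median 0.24), and with the block 0 were called higher and 2 lower (1.19% and 1.29% of all genes). The latter were Plbd1, which encodes a phospholipase B-like protein (log2 difference -2.68 ± 0.76, limma adjusted p = 0.00943 with the block and 0.273 without), and Gm2a, the gene of the GM2 activator (-0.91 ± 0.23, limma adjusted p = 0.0268 and 0.204). The other pump genes were 10, of which 3 were tested, all with negative differences and none called. Among these, Tcirg1, which encodes the alternative a3 subunit, was read at 126 to 267 counts in F4/80lo against 76.6 to 225 in F4/80hi Mϕ (log2 difference -0.51). Of 16 regulators of lysosomal signalling, including the TFEB relatives Tfe3, Mitf and Tfec and the Ragulator genes, 15 were tested, 12 were positive and 0 were called with the block.

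With CIII, no gene of these lists was called in either subpopulation. Of the other lysosomal genes, 14 of 28 (F4/80lo) and 19 of 28 (F4/80hi) were above 0, with medians of 0.01 and 0.13. Of the regulators, 9 of 15 and 7 of 15 were above 0. At an unadjusted p under 0.05 with the block, 4 of 15 regulators were lower with CIII in F4/80hi Mϕ (6.24% of all genes), namely Tfec and the Ragulator genes Lamtor2, Lamtor4 and Lamtor5 (log2 fold changes -1.06, -0.81, -0.66 and -0.74), with limma adjusted p from 0.234 to 0.382. In F4/80lo Mϕ the same test gave 2 higher regulators, Lamtor1 and Mtor (0.75 and 0.85, limma adjusted p = 0.71 and 0.689, 3.03% of all genes), and 0 lower. These genes were picked out after their values were seen.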

How the data were processed

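mRNA of sorted F4/80lo and F4/80hi Mϕ was sequenced as 3′ libraries with unique molecular identifiers (UMIs). According to the study's methods, the authors trimmed reads with Bbduk, mapped them to GRCm38 with STAR, collapsed UMI duplicates, counted reads per gene with HTSeq-count and normalised with DESeq2. The annotation release and the treatment of reads matching several places are not given in the sources used here. The deposited signal values are normalised counts, that is whole reads divided by 1 size factor per library, set separately for each subpopulation by the authors. All values (100%) came out as whole reads within 0.01 reads, and a symbol was found for 47224 of 47643 identifiers in a reference table of gene names. A 3′ read count does not scale with transcript length, and where no read was found, up to 3 reads remain possible from counting error alone.

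CIII and VEH were compared within each subpopulation with limma 3.58.1 (R 4.3.3, intensity trend, two-sided, Benjamini-Hochberg adjustment over all genes, threshold 0.05) on log2 of the normalised count plus 1, for genes with a mean of at least 3. These log2 differences understate changes of weakly read genes. F4/80hi and F4/80lo Mϕ, and the difference of the CIII responses, were compared over 12 libraries after dividing the recovered reads by joint median-of-ratios size factors. edgeR 4.0.16 and DESeq2 1.42.0 were run on the recovered reads as alternatives. The fits were tested on simulated counts, and none of the 12 pairs of libraries within a group agreed within sampling noise. Same-numbered libraries correlated in their deviations from group means (0.121 to 0.505 between treatments of F4/80lo, 0.21 to 0.635 of F4/80hi, and 0.266 to 0.692 between subpopulations), while differently numbered libraries of these 3 kinds of pair reached at most 0.287. Across both treatment and subpopulation, 1 same-numbered pair was at 0.0912 and 1 differently numbered pair at 0.298. Since all same-numbered pairs between treatments of a subpopulation, or between subpopulations of a treatment, exceeded 0.1, the replicate numbers were taken to pair the libraries, from these deviations alone. Some differently numbered pairs exceeded 0.1 as well. The VEH library numbered 1 correlated more with CIII number 2 than with CIII number 1. The values were 0.162 against 0.121 in F4/80lo and 0.287 against 0.21 in F4/80hi Mϕ.

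The members and gene lists were chosen with earlier results of these data known. Fold changes with errors are given for the 5 lysosomal and 3 pump members with the smallest p in each CIII comparison, for up to 6 of the largest called differences in each direction between the subpopulations (0 members were called without the block), and for Lamp1, Cd68, Lipa, Grn, Tfeb, Atp6v0d1 and Atp6v0d2. Genes called with the block and other named genes were added with their values known. Plots and tables were made in Python 3.11.15 (matplotlib 3.10.9).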

Additional observations from a re-analysis of the deposited data

How the results depend on the processing

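The count of members called with CIII was 0 in each subpopulation, and that of members whose response differed was 0, under each alternative that was run (other pseudocounts, filters and scalings, the replicate block, library weights, edgeR, DESeq2 and leaving out libraries). The count of members called higher in F4/80hi Mϕ was 0 in the limma fit without the block and 10 with the replicate block, 10 in edgeR with this block, 3 with library weights and 2 in DESeq2. It was 7 without the libraries numbered 3 and 13 without them under the block, and leaving out 1 library gave 0 members without the block and 1, 2, 3, 4, 5 or 12 with it. The fits named last, with edgeR and the block, without number 3 and without 1 library under the block, were chosen after seeing the data. The count of members with a positive difference between the subpopulations stayed at 39 to 42 under all 39 alternatives. Scaling by total reads moved the median fold change of all genes in F4/80hi Mϕ with CIII from 0.05 to 0.15 on the log2 scale. The replicate block changed no call of a member with CIII or in the difference of the responses.

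For the pump genes, the median fold change with CIII in F4/80lo Mϕ was -0.137 without the libraries numbered 3 and ranged from -0.137 to 0.0912 when 1 library was left out, and from -0.169 to 0.118 in F4/80hi Mϕ, and their median difference between the subpopulations ranged from 0.256 to 0.427. The hydrolase median with CIII ranged from 0.063 to 0.396 (F4/80lo) and from 0.161 to 0.54 (F4/80hi) over all alternatives. The log2 ratio of hydrolase to pump reads with CIII in F4/80lo Mϕ was 0.369 with each gene counted equally, the weakly read Atp6v0c included. It ranged from -0.0476 to 0.287 when 1 library was left out of the ratio of summed reads. Some small fold changes with CIII changed sign. In F4/80lo Mϕ, scaling by total reads gave 0.0417 for Cd68 and 0.0498 for Grn, and without the libraries numbered 3 the values were -0.0196 for Lamp1 and 0.0459 for Grn. In F4/80hi Mϕ, Atp6v0d1 was at 0.021 with scaling by total reads, 0.0242 with library weights and 0.1 without the libraries numbered 3. Leaving out 1 library of F4/80lo Mϕ gave values from -0.0764 to 0.219 for Lamp1, -0.352 to 0.315 for Cd68, -0.499 to 0.0718 for Lipa and -0.138 to 0.135 for Grn. Leaving out 1 library of F4/80hi Mϕ gave values from -0.597 to 0.119 for Cd68, -0.618 to 0.12 for Tfeb, -0.182 to 0.0372 for Atp6v0d1 and -0.997 to 0.405 for Atp6v0d2. The cause of these shifts was not tested.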
